A study of Mus musculus with 6 samples.

Results

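The proteasome subunit mRNAs are 36 transcripts that encode the ATP-dependent protease of the cytosol and nucleus. They were chosen by name, as a fixed list of Ensembl gene identifiers, under a rule that uses no measured value. The list holds Psma1 to Psma7, Psmb1 to Psmb10, Psmc1 to Psmc6, 11 of the Psmd genes, Psme1 and Psme2, out of 54446 gene identifiers in the count files. All 36 identifiers were present in every file, and all 36 passed the filter on low counts. That filter asks for enough reads in 3 of the 6 libraries.

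The proteasome is a barrel of 4 stacked rings, the 20S core, capped by regulators that feed proteins into it. The outer rings are built from the alpha subunits (Psma) and gate the entry, and the inner rings are built from the beta subunits (Psmb), some of which cut the substrate. The 19S regulatory particle recognises ubiquitin-tagged proteins, removes the tag and unfolds the chain with a ring of ATPases. In lymphocytes and in cells exposed to interferon, the catalytic beta subunits are partly replaced by the immunosubunits Psmb8, Psmb9 and Psmb10, and the cap can be PA28, made of Psme1 and Psme2. YTHDF2 is a cytoplasmic reader of N6-methyladenosine (m6A), a methyl mark on adenosines in mRNA, and it promotes the decay of transcripts that it binds.

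The study used RNA immunoprecipitation and sequencing (RIP-seq) to find RNAs bound to YTHDF2 in regulatory T (Treg) cells of mouse tumours. Live cells positive for CD45, CD4 and a Foxp3-GFP reporter were sorted from subcutaneous B16F10 tumours, a mouse melanoma line, in wild-type (WT) hosts. The IP group holds 3 libraries of RNA recovered with an anti-mouse YTHDF2 antibody, and the Input group holds 3 libraries of RNA from lysate kept without antibody. Genotype, tissue and sorted cell type were the same in both groups, and animal ages were not given in the sources used here. None of these libraries was a precipitation with a control antibody, so unspecific recovery and binding to YTHDF2 cannot be told apart. Whether replicates came from different animals or from pools is not in the labels, so every p-value reflects only how these libraries vary, and that variation may be technical. The libraries are bulk, so fewer cells of a type and less RNA per cell cannot be told apart in a level. The fold changes compare RNA recovered with the antibody with Input RNA and do not measure abundance per cell. Markers of Treg cells and of other cell types were not analysed here, because no table in use paired their symbols with the identifiers.

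Gene-assigned reads numbered 6847731 to 8465453 per IP library and 10029733 to 14704617 per Input library. IP replicate 3 stood apart, with a read for 14200 gene identifiers against 18501 and 19991 in the other IP libraries. It also gave 4 of the 5 cases in which a proteasome mRNA had no read in a library, and IP replicate 1 gave the other. A count of 0 allows a level of up to 3 reads, which was 0.351 CPM (the count scaled to library size) in IP replicate 1 and 0.356 CPM in IP replicate 3, for counting error only. Among the 7505 tested genes whose mean Input level lay in the range of the members, 14.4 to 563 CPM, 6.84% had no read in IP replicate 3, against 0.613% and 0.799% in IP replicates 1 and 2.

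Proteasome mRNAs were scarcer in the RNA recovered with YTHDF2 than in the Input. Together they made up 0.341%, 0.357% and 0.374% of gene-assigned reads in the 3 Input libraries and 0.125%, 0.147% and 0.141% in the 3 IP libraries. The mean share was 0.358% ± 0.0162 (SD, n = 3) for the Input and 0.138% ± 0.0116 (SD, n = 3) for the IP. Each IP library thus lay well below each Input library, and the ratio of the means was -1.38 on the log2 scale. Counted against all reads of a library, those outside genes included, the shares were 0.139% ± 0.00608 (SD, n = 3) and 0.0342% ± 0.00314 (SD, n = 3).

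**Figure D1:**
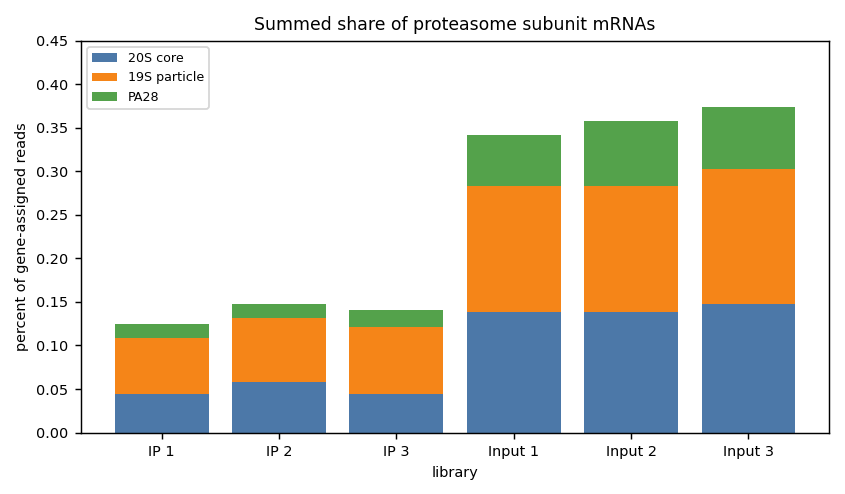
Summed reads of the 36 proteasome subunit mRNAs as a percent of gene-assigned reads (y axis) in each of the 6 libraries (x axis), stacked by 20S core, 19S particle and PA28. The Input libraries reach 0.341% to 0.374% and the IP libraries 0.125% to 0.147%.

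The estimated log2 fold change, IP over Input, lay below 0 for all 36 mRNAs, against 53.9% of the 15615 genes tested and 57.7% of those in the same range of Input level. The filter on low counts could be passed through the Input libraries alone, and Psma5, Psmb2, Psmb5 and Psmb10 passed it with an IP library without a read. A filter of 1 CPM in all libraries removed these, and all 32 members left were below 0. For 33 of the 36, every IP library lay below every Input library, a separation seen for 23.7% of all tested genes and for 31.9% of the genes in the same range of Input level. The median log2 fold change of the proteasome mRNAs was -1.46 (quartiles -2.08 and -1.18), which corresponds to 36.4% of the Input level, against -0.12 over all tested genes and -0.19 over the genes in the same range of Input level. The estimate was at least 2-fold lower for 30 of the 36, against 26.4% of all tested genes. In edgeR's quasi-likelihood test with Benjamini-Hochberg adjustment over all tested genes, 15 of the 36 were depleted at an adjusted p under 0.05, where 6.11% of all tested genes and 10.9% of those in the same range of Input level were. None was enriched, where 4.33% of all tested genes and 7.37% of those in the same range were. DESeq2 called 23 of the 36 depleted, and 0 enriched, where it called 10.3% of genes depleted and 6.82% enriched. Of the genes in the same range of Input level, DESeq2 called 16.4% depleted. At an unadjusted p under 0.05, edgeR's test passed 28 members, each of them lower in the IP, where 13.9% of all tested genes were lower at that threshold.

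The number of depleted members depended on the libraries. In edgeR's test on the 5 remaining libraries it was 25 without IP replicate 3, where 8.73% of all tested genes were depleted. Without IP replicate 1 or 2 it was 11 or 12, where 4.62% of all tested genes were depleted in each case. Without Input replicate 1, 2 or 3 it was 9, 9 or 6, where 3.98%, 3.56% and 3.26% of all tested genes were. The share over all genes thus moved the same way as the count of members. With library sizes taken from all reads the count was 26, where 11.7% of all tested genes were depleted and their median moved by -0.53. The sign depended less on these choices: it was below 0 for all 36 under 16 of the 18 alternatives, with the 4 members that 1 filter removed left out there. In the other alternatives, upper quartile factors and the fit without IP replicate 1, only Psmd1 was above 0.

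**Figure D2:**
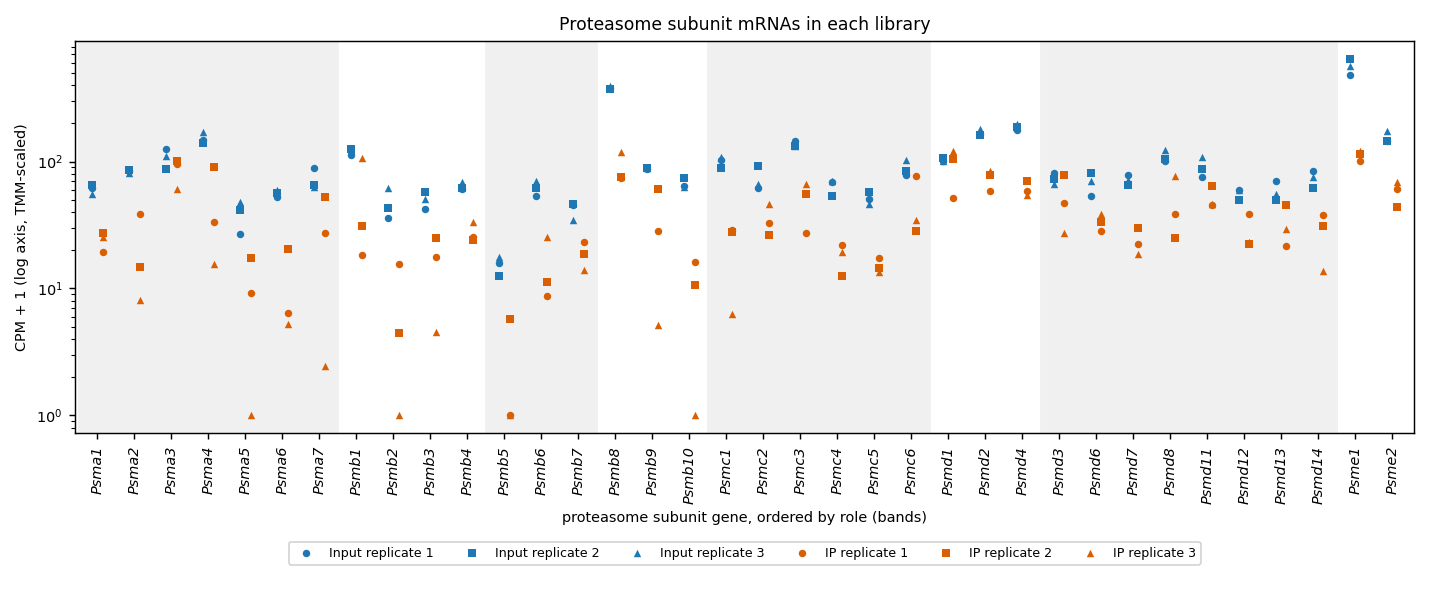
CPM plus 1 on a log axis (y axis) for each of the 36 proteasome subunit genes (x axis, shaded in bands by role), with 1 point per library, Input in blue and IP in orange, and marker shapes for replicates 1 to 3. The IP points lie below all Input points for 33 genes, and points at 1 are libraries with no read.

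In the alpha ring of the 20S core, 3 of 7 mRNAs were depleted and the median log2 fold change was -1.75. Psma6 (ENSMUSG00000021024, chr12:55384222-55418459 in GRCm38) had 51.8, 55.0 and 58.3 CPM in the Input and 5.39, 19.3 and 4.28 CPM in the IP. The Input values were close together and the IP values scattered, yet the highest IP library stayed below the lowest Input library. Its log2 fold change was -2.51 ± 0.60 (SE, edgeR's adjusted p = 0.0277). Psma2 had 83.0, 85.5 and 80.0 CPM in the Input and 37.8, 13.8 and 7.13 CPM in the IP, a log2 fold change of -2.08 ± 0.54 (SE, edgeR's adjusted p = 0.0395). Psma1, the third depleted alpha subunit, was less scattered in the IP, at 18.3, 26.4 and 24.6 CPM against 54.7 to 64.4 CPM in the Input (log2 fold change -1.37 ± 0.33 (SE), adjusted p 0.0255 in edgeR's test).

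Psma3 was the exception of the ring. It had 125, 86.2 and 110 CPM in the Input and 94.6, 99.9 and 59.3 CPM in the IP, so the groups overlapped. The log2 fold change was -0.34 ± 0.27 (SE, edgeR's adjusted p = 0.538). Psma4, Psma5 and Psma7 did not pass the test either, but their groups did not overlap. Their log2 fold changes were -1.75 ± 0.54, -2.20 ± 1.19 and -1.44 ± 0.86 (SE), and each had its lowest value in IP replicate 3, with 14.6, 0 and 1.43 CPM in that library.

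The 10 beta subunit mRNAs had a median log2 fold change of -1.92, and 3 of them were depleted. In all 10 the IP libraries lay below the Input libraries. Among the subunits that do not cut, Psmb4 was depleted, with 59.3, 60.9 and 67.4 CPM in the Input and 24.4, 23.2 and 32.1 CPM in the IP (log2 fold change -1.23 ± 0.31 (SE), adjusted p 0.0324 in edgeR's test). Psmb2 had 35.0 to 60.4 CPM in the Input and 14.6, 3.48 and 0 CPM in the IP. Its log2 fold change of -2.92 ± 1.20 (SE, edgeR's adjusted p = 0.169) did not pass the test. Psmb1 and Psmb3 did not pass either, and in both IP replicate 3 was far from the other IP libraries, in opposite directions. Psmb1 was highest in IP replicate 3, at 105 CPM against 17.3 and 30.1 CPM. Psmb3 was lowest there, at 3.56 CPM against 16.6 and 24.1 CPM.

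The constitutive catalytic subunits are Psmb5, Psmb6 and Psmb7, which carry the chymotrypsin-like, caspase-like and trypsin-like activities. Psmb6 was depleted, with 52.3, 61.3 and 69.2 CPM in the Input and 7.73, 10.2 and 24.5 CPM in the IP (log2 fold change -2.11 ± 0.48 (SE), adjusted p 0.0229 in edgeR's test). Psmb7 had 44.8, 45.4 and 33.4 CPM in the Input and 22.2, 17.6 and 13.1 CPM in the IP, and its log2 fold change was -1.22 ± 0.41 (SE, edgeR's adjusted p = 0.0921, not past the test). Psmb5 had the lowest Input level of the 36, with 206, 110 and 193 reads, and 0, 33 and 0 reads in IP replicates 1, 2 and 3. All its IP reads came from 1 library, and the log2 fold change of -3.18 ± 1.75 (SE, edgeR's adjusted p = 0.326) did not pass the test. Without IP replicate 2 no IP read of Psmb5 is left.

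The immunosubunit Psmb8, the inducible counterpart of Psmb5, was among the most clearly depleted members. Psmb8 (ENSMUSG00000024338, chr17:34198195-34201454) had 378, 370 and 391 CPM in the Input and 72.7, 75.2 and 118 CPM in the IP. The Input values were tight and all IP values lay far below them, with a log2 fold change of -2.10 ± 0.22 (SE, edgeR's adjusted p = 0.000373). Psmb9, the counterpart of Psmb6, lies 10864 bases from Psmb8, with the peptide transporter gene Tap1 between them. It had 85.9, 88.3 and 87.5 CPM in the Input, the tightest Input values of the 36, and 27.3, 59.7 and 4.16 CPM in the IP. The IP values of Psmb9 were far apart, with IP replicate 3 the lowest, and its log2 fold change was -1.52 ± 0.70 (SE, edgeR's adjusted p = 0.222). Psmb10, the counterpart of Psmb7, had 62.9, 72.5 and 62.3 CPM in the Input and 15.2, 9.58 and 0 CPM in the IP. Its estimate was lower than that of Psmb8, at -2.99 ± 1.09 (SE, edgeR's adjusted p = 0.118), and did not pass the test.

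Whether an immunosubunit was recovered differently from its constitutive counterpart was examined as a read ratio within each library, which does not depend on the scaling between libraries. With 0.5 reads added to each count, the log2 ratio of Psmb10 to Psmb7 was 0.49, 0.68 and 0.90 in the Input and -0.55, -0.87 and -7.79 in the IP. The 3 IP libraries lay below the 3 Input libraries, and the value of -7.79 rests on a count of 0. The difference of the means was -3.75, and -1.39 without IP replicate 3. An exact permutation test (two-sided) gave p = 0.1, the smallest value that 3 against 3 libraries allow, and 0.3 after Benjamini-Hochberg adjustment over the 3 pairs. For Psmb9 over Psmb6 the log2 ratio was 0.72, 0.53 and 0.34 in the Input and 1.81, 2.55 and -2.54 in the IP. IP replicate 3 thus lay on the other side of the Input from IP replicates 1 and 2, and the difference of the means was 0.079 (exact permutation p = 1, adjusted 1). For Psmb8 over Psmb5 it was 4.67, 4.99 and 4.55 in the Input and 10.28, 3.95 and 10.95 in the IP, where the high values rest on counts of 0 for Psmb5 (exact permutation p = 0.4, adjusted 0.6). With 3 libraries against 3, no pair could reach a p under 0.05 in this test, whatever its values. The spread in the IP, 2.75 to 4.09 (SD, n = 3, log2 scale), was too wide to show that the members of a pair were recovered alike.

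In the base of the 19S particle, 4 of the 6 ATPase mRNAs were depleted, with a median log2 fold change of -1.66 over the 6. These subunits form the ring that unfolds substrates. Psmc1 had 102, 87.6 and 107 CPM in the Input and 27.8, 27.1 and 5.34 CPM in the IP (log2 fold change -2.30 ± 0.54 (SE), adjusted p 0.0247 in edgeR's test). Psmc4 had 67.7, 52.9 and 69.0 CPM in the Input and 21.0, 11.5 and 18.4 CPM in the IP (-1.90 ± 0.37 (SE), adjusted p 0.0102 in edgeR's test). Psmc5, the least scattered ATPase in the IP, had 49.5, 57.0 and 45.1 CPM in the Input and 16.4, 13.4 and 12.4 CPM in the IP (-1.85 ± 0.37 (SE), adjusted p 0.0126 in edgeR's test). For all of these, each IP library lay below each Input library. Psmc3 had 144, 131 and 132 CPM in the Input and 26.5, 54.4 and 65.6 CPM in the IP (-1.47 ± 0.33 (SE), adjusted p 0.0196 in edgeR's test). Psmc2 and Psmc6 did not pass, at -1.08 ± 0.33 and -0.94 ± 0.39 (SE), and in Psmc6 IP replicate 1, with 75.6 CPM, came close to the lowest Input library, with 77.1 CPM.

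The other base subunits differed widely among themselves. Psmd4, a ubiquitin receptor of the particle (ENSMUSG00000005625, chr3:95032688-95042614), had 175, 187 and 198 CPM in the Input and 57.3, 69.8 and 53.7 CPM in the IP. Its groups were tight and well separated, with a log2 fold change of -1.63 ± 0.20 (SE, edgeR's adjusted p = 0.00105). Psmd2, a large scaffold subunit, had 163, 160 and 181 CPM in the Input and 57.6, 77.2 and 82.8 CPM in the IP (-1.21 ± 0.21 (SE), adjusted p 0.00663 in edgeR's test). Psmd1, the other large scaffold subunit (ENSMUSG00000026229, chr1:86064619-86139295), had the highest estimate of the 36. It had 100, 106 and 99.2 CPM in the Input and 50.5, 104 and 119 CPM in the IP, so that only IP replicate 1 lay below the Input libraries and IP replicate 3 lay above them. The log2 fold change was -0.16 ± 0.31 (SE, edgeR's adjusted p = 0.846), and it turned to 0.049 with upper quartile factors and to 0.086 without IP replicate 1.

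The lid, which carries the deubiquitinase that removes the tag, had a median log2 fold change of -1.04 over 8 mRNAs, and 1 of the 8 was depleted. This was Psmd7, the partner of the deubiquitinase Psmd14, with 77.1, 64.7 and 70.7 CPM in the Input and 21.5, 29.2 and 17.8 CPM in the IP (log2 fold change -1.63 ± 0.32 (SE), adjusted p 0.0108 in edgeR's test). Psmd14 itself had 83.3, 60.8 and 74.4 CPM in the Input and 37.1, 30.2 and 12.8 CPM in the IP, and its log2 fold change of -1.45 ± 0.41 (SE, edgeR's adjusted p = 0.0541) did not pass the test. Of the scaffold subunits of the lid, Psmd6, Psmd8, Psmd11, Psmd12 and Psmd13 had log2 fold changes from -1.26 to -0.81, and in each the IP libraries lay below the Input libraries without passing the test. Psmd3 overlapped, with 79.8, 71.8 and 65.1 CPM in the Input and 45.7, 77.7 and 26.5 CPM in the IP (-0.53 ± 0.38 (SE), adjusted p 0.484 in edgeR's test).

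Both PA28 mRNAs were depleted. Psme1 (ENSMUSG00000022216, chr14:55578494-55581527) had 475, 646 and 568 CPM in the Input and 100, 113 and 119 CPM in the IP. The IP values were the tightest of the 36, with a coefficient of variation (CV) of 8.35%, and the log2 fold change was -2.35 ± 0.17 (SE, edgeR's adjusted p = 5.2e-05). This corresponds to 19.6% of the Input level. Psme2 lies 5912 bases away, and no other RefSeq gene lies wholly between them. The Psme1 span overlaps the gene Emc9, and whether Emc9 reaches into that gap was not examined. Psme2 had 144, 144 and 173 CPM in the Input and 59.7, 42.5 and 68.4 CPM in the IP. Its log2 fold change was -1.44 ± 0.24 (SE, edgeR's adjusted p = 0.00538). The ratio of Psme1 to Psme2 reads within a library was 3.29, 4.47 and 3.29 in the Input and 1.68, 2.66 and 1.73 in the IP. Each IP library lay below each Input library. This ratio was formed after the values were seen and was not tested.

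**Figure D3:**
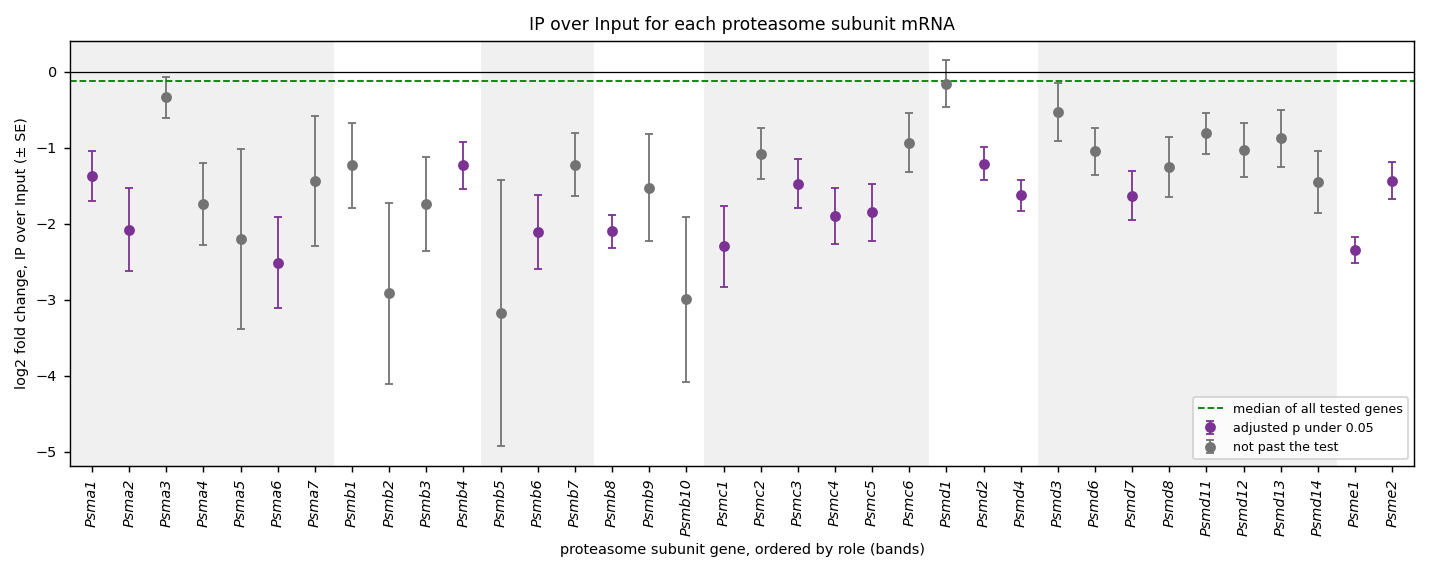
Log2 fold change of IP over Input with its SE (y axis) for each of the 36 proteasome subunit genes (x axis, shaded in bands by role), with the 15 genes at an adjusted p under 0.05 in edgeR's test in purple and the other 21 in grey. All 36 estimates lie below 0 with TMM factors (Psmd1 turns to 0.049 with upper quartile factors), and the dashed line is the median of all tested genes, -0.12.

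The balance of the subcomplexes differed between the groups. The 19S particle took 42.36%, 40.18% and 41.50% of the proteasome reads in the Input and 51.44%, 50.04% and 54.02% in the IP. PA28 took 17.11%, 20.92% and 18.99% in the Input and 12.94%, 10.62% and 14.37% in the IP. The 20S core took 39.6% ± 0.820 (SD, n = 3) and 35.5% ± 3.86 (SD, n = 3), and here the groups overlapped, since IP replicate 2, at 39.33%, lay above the lowest Input library, at 38.90%. The median log2 fold changes were -1.75 for the 17 mRNAs of the core and -1.21 for the 17 of the 19S particle, with 6 and 7 depleted. Single mRNAs with small changes contributed to these shares: Psmd1 took 2.70% ± 0.142 (SD, n = 3) of the Input's proteasome reads and 6.78% ± 2.56 (SD, n = 3) of the IP's. Psma3, in the core, took 2.85% ± 0.584 (SD, n = 3) and 6.34% ± 1.60 (SD, n = 3). Psme1 was the most abundant by reads in each Input library, with 14.9% ± 2.01 (SD, n = 3) of proteasome reads there and 8.32% ± 0.719 (SD, n = 3) in the IP. The differences between subcomplexes were not tested.

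The spread between IP libraries enters the test, so the depleted members and the others differ in it partly by construction. The 15 depleted mRNAs had a median CV of 25.4% in the IP (8.35% to 86.7%) and the 21 others of 57.6% (15.6% to 173%). The ranges overlapped, and 4 of the 15 depleted mRNAs had a CV above 60%. In the Input these medians were 8.17% and 15.6%. Of the 21, 15 had an estimate at least 2-fold lower in the IP, and 13 had an unadjusted p under 0.05 in edgeR's test. Among all tested genes, the called ones included, 26.4% were at least 2-fold lower and 13.9% were lower at that unadjusted p. Over all 36 the median CV was 40.4% among IP libraries and 10.8% among Input libraries, against 36.1% and 14.9% for genes in the same range of Input level. Psmb5, Psmb10 and Psmb2, the members with the lowest estimates, had CVs of 173%, 93.1% and 127% in the IP and at least 1 IP library without a read. A missing call for these does not show that they were recovered at the Input level.

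**Figure D4:**
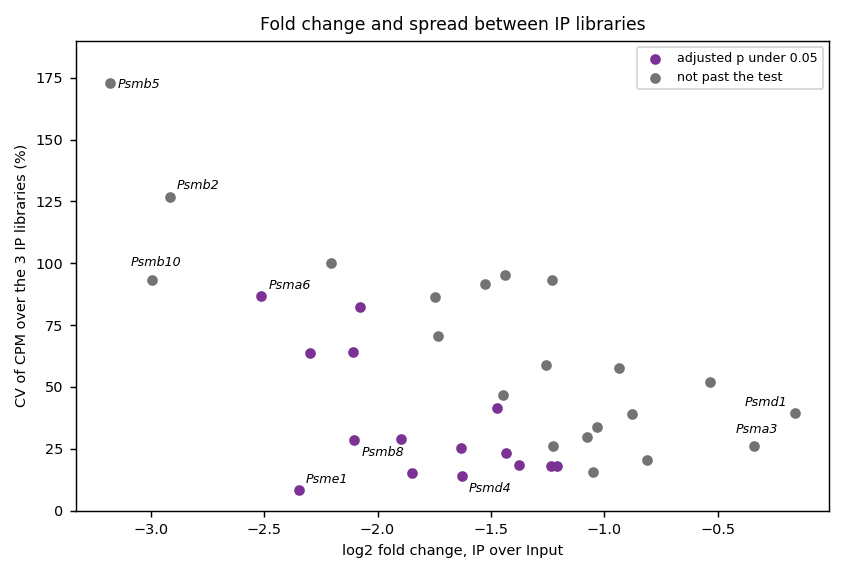
Log2 fold change of IP over Input (x axis) against the coefficient of variation of CPM over the 3 IP libraries in percent (y axis), 1 point per proteasome subunit gene, with the 15 genes at an adjusted p under 0.05 in edgeR's test in purple. Psmb5, Psmb10 and Psmb2 combine the lowest estimates with CVs of 93.1% to 173%, while Psme1 has the lowest CV, 8.35%.

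The calls for Psmb8, Psmd2, Psmd4, Psme1 and Psme2 held in all 18 alternative settings. In those settings the log2 fold change of Psme1 ranged from -2.87 to -2.15, that of Psmb8 from -2.62 to -1.90 and that of Psmd4 from -2.16 to -1.43. Psmc4 and Psmd7 lost the call in 1 setting each, Psmc3 and Psmc5 in 3, Psmc1 in 4, and Psma1, Psma2, Psma6 and Psmb6 in 5, while Psmb4 lost it in 8. At the other end, Psma3, Psma7, Psmd1 and Psmd3 were called in none of them.

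All 36 members were found by symbol in the RefSeq gene table of GRCm38.p6, the assembly that mm10 names, and they lie on 14 chromosomes. The span of 9 of them overlaps another RefSeq gene, and 3 of these 9, Psma6, Psmc5 and Psme1, were depleted. The members with the highest estimates, Psmd1 and Psma3, are among the 9, and so is Psmb5, which has the lowest. The Psmd1 span overlaps Htr2b and the small nucleolar RNA gene Gm22786, and the Psma3 span overlaps the long noncoding RNA gene 3110056K07Rik. The Psmb5 span overlaps the microRNA gene Mir686. The counting's strand setting was not given in the sources used here, and the part of the overlapping genes in these counts was not tested. RefSeq lists 6 pseudogenes named after Psma5, Psmb5, Psmb6 or Psmb7, so the counts of these members are uncertain, and their part in the results was not tested. Across the 36 members, the log2 fold change was higher for genes of longer span (Spearman's rho 0.42, Pearson's r 0.40 with log10 of the span) and was weakly related to the Input level (rho 0.21, r 0.18). These values describe genes that share the same 6 libraries, and the span includes introns, so it is not the length of the mRNA.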

How the data were processed

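The deposited files hold raw read counts, 1 per Ensembl gene identifier. Trimmomatic 0.39, HISAT2 2.1.0, HTSeq and DESeq2, with mm10, are named as the authors' tools in the submitters' processing notes. Annotation, strand setting and duplicate handling were not given in the sources used here. HTSeq's summary lines, 60.0% to 75.8% of a file, and the spike-in identifiers, 0 to 2 reads, were left out.

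The test was edgeR 4.0.16 (R 4.3.3), quasi-likelihood, with filterByExpr, TMM scaling, robust dispersions and a design of group alone, adjusted over all 15615 genes and tested on simulated data. CPM use TMM-scaled library sizes. Alternatives were other factors, filters and library sizes, DESeq2 1.42.0, limma 3.58.1 voom, non-robust dispersions, a 1.5-fold threshold, a replicate block and each library left out. No 2 replicates were repeats of 1 library (chi-square per degree of freedom at least 16.1).

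Members, lists and tests were chosen with earlier results of these data known. Members described in full were at most 12 called in edgeR by size, Psmb5 to Psmb10, Psme1, Psme2 and the 2 uncalled at each end, and the rest were added after their values were seen. Lists of other proteasome-related genes and of cell type markers, 61 symbols, were not analysed, since no table paired them with identifiers.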

Additional observations from a re-analysis of the deposited data

Results flagged for a closer look

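Reads in no annotated feature lie outside the gene counts used for the proteasome mRNAs. Their share was 71.7% ± 0.434 (SD, n = 3) in the IP files, with 71.2% in the lowest, and 50.4% ± 1.08 (SD, n = 3) in the Input files, with 51.6% in the highest. Their part in the results was not tested, beyond the library sizes and shares from all reads given for the proteasome mRNAs.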

How the results depend on the processing

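Depleted members numbered 26 with library sizes from all reads, 24 without a filter, 24 with limma voom, 23 with DESeq2 and 8 when tested against 1.5-fold, compared with 15 in the main setting. In the same order, 11.7%, 3.29%, 10.98%, 10.3% and 3.78% of all genes were depleted, compared with 6.11%. Only without a filter did this share move the other way, with 1319 of 40072 tested genes depleted, compared with 954 of 15615. The number of depleted genes thus rose there too, while more genes were tested. With 1 library left out, 6 to 25 members and 3.26% to 8.73% of all genes were depleted. Except for the test against 1.5-fold, which asks for a larger change, the cause was not tested. No alternative called a member enriched. The median log2 fold change of the members was -1.26 with upper quartile factors, -1.99 with library sizes from all reads and -1.63 with limma voom, against -1.46, and -1.66 to -1.49 with 1 library left out. The median of the genes also tested in the main setting moved by 0.20, -0.53 and -0.15 in these 3 settings, and by 0.11 with total gene counts. A replicate block gave 18 depleted members, 15 of them shared with the fit without it, and a median of -1.65. There 7.01% of all tested genes were depleted, compared with 6.11%, and the median of all tested genes moved by -0.145. The labels do not say that equal numbers share a lysate, and deviations of same-numbered libraries correlated at 0.115, 0.0332 and 0.0245, so no pairing was assumed, although the best correlation of every library was with its own number. The summed share of proteasome reads changed by -2.02 on the log2 scale when counted against all reads, against -1.38. The log2 fold change of Psmd1 reversed to 0.049 with upper quartile factors and ranged from -0.44 to 0.086 with 1 library left out, the highest without IP replicate 1. The log2 ratio of Psmb9 to Psmb6 reversed without IP replicate 1, IP replicate 2 or Input replicate 3, with differences from -0.89 to 1.65 over the libraries left out. Of the other values of the 18 members that the rule chose for full description, 283 kept sign and side of the threshold, 27 lost a call and 10 gained one. The filter of 1 CPM in all libraries removed Psma5, Psmb2, Psmb5 and Psmb10. At the depth of the IP libraries, 5 counts of members were 0 and give only an upper limit.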
